A study of Drosophila melanogaster with 5 samples.

Results

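Lipoproteins and lipid storage are represented here by 10 named genes of Drosophila melanogaster, chosen by name for their known roles: apolpp, Apoltp and Mtp, which build and load lipoproteins, LpR1 and LpR2, the lipophorin receptors, Lsd-1 and Lsd-2, the perilipins of the droplet surface, and bmm, mdy and FASN1, enzymes of triglyceride breakdown and synthesis. All 10 were found among the 17807 genes of the count table, and all 10 were among the 11624 genes whose counts summed to 10 or more over the libraries. RNA was sequenced from the cells pelleted out of larval hemolymph, the circulating fluid that holds the blood cells (hemocytes). The 3 abd-A libraries came from Cg-Gal4>UAS-abd-A larvae, in which the Hox gene abd-A was overexpressed, and the 2 control libraries from Cg-Gal4>CS larvae, the driver crossed to wild-type Canton-S. Both groups thus carried Cg-Gal4, a driver active in hemocytes and in the fat body, and were in the third larval instar, aged 96 to 102 h after egg laying at 25 °C. Each library was made from a pool of 20 larvae, so that the spread between libraries is that between pools.

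Insect lipids travel in the hemolymph on lipophorin, a lipoprotein that the fat body assembles and that tissues unload repeatedly without degrading it. Inside cells, triglycerides lie in droplets coated by perilipins, which set how readily lipases reach the lipid. The fat body is the main site of lipoprotein synthesis and triglyceride storage in the larva, whereas hemocytes take up lipoproteins through scavenger and lipoprotein receptors.

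The abd-A libraries held 4736033, 3848911 and 4959111 counts, against 1252969 and 2567624 in the control libraries, and 3 counts correspond to between 0.638 and 0.817 CPM, the count scaled to the normalized library size, in abd-A and to 2.06 and 1.16 CPM in control replicates 1 and 2. The overexpressed gene abd-A measured 139, 129 and 136 CPM in abd-A libraries, against 0 and 8.15 CPM in control libraries. All 9 lamellocyte markers tested were called higher and 6 of 7 plasmatocyte markers were called lower, the most abundant of each list being cher (5506 to 6591 CPM in abd-A, 613 and 836 CPM in control, 4.31% of its exons shared with genes on the other strand) and Hml (3997 to 4912 CPM in abd-A, 13748 and 16877 CPM in control). The remaining plasmatocyte marker, Sr-CI, fell by less than 2-fold (log2 fold change -0.82). The larval fat body markers summed to 65.7, 138 and 28.1 CPM in abd-A libraries, against 2414 and 20347 CPM in control libraries, with 6 of 8 tested called lower, and Pepck1 had 0 counts in every library. Lsp2, called lower and at 356 and 4723 CPM in control replicates 1 and 2, shares 84.6% of its exons with the other strand. In such bulk samples, fewer cells of a type and less RNA per cell cannot be told apart. The library kit marks the strand, but the strand setting of the counting is not given in the sources used here. The count density of a gene annotated as antisense RNA was 5.42 to 9.19 times that of the coding gene it overlaps (median over pairs, range over libraries), a pattern that counting on the opposite strand would leave. The counts amounted to 18.9%, 15.4% and 19.8% of the stated minimum of 25000000 reads in abd-A libraries, against 5.01% and 10.3% in control libraries. The counts are therefore reported as deposited, and whether a gene's count came from its own strand was not tested.

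Of the 10 genes, FASN1 was higher and Lsd-1 lower in abd-A than in control libraries, and the other 8 did not pass the test. A gene was called when edgeR's quasi-likelihood test gave a Benjamini-Hochberg adjusted p under 0.05 over all genes tested and the change was at least 2-fold. The same rule called 23.7% of all genes tested, 11.0% higher and 12.7% lower, so that 2 calls among 10 lie near the background. For 5 of the 10 genes the libraries of the 2 groups did not overlap, against 56.6% of all genes tested. FASN1 and bmm lay above control in every abd-A library, and Lsd-1, Mtp and mdy below. The log2 fold change was above 0 for 6 genes and below 0 for 4, with a median of 0.17 against -0.17 over all genes tested. Each SE was worked back from edgeR's test, as the size of the log2 fold change over the square root of its F statistic.

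**Figure D1:**
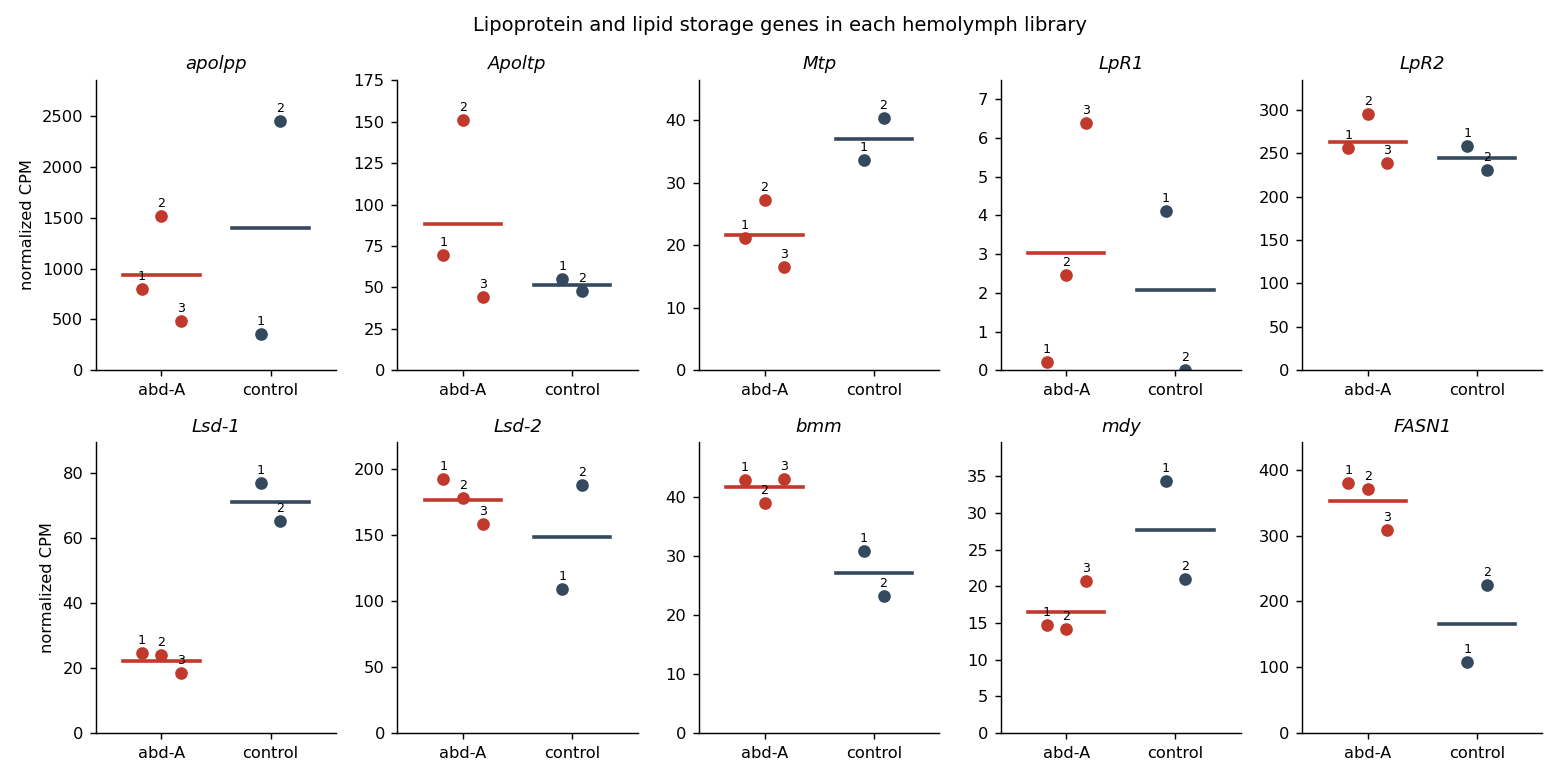
Normalized CPM of each of the 10 genes (linear axes from 0, each gene on its own scale) in the 3 abd-A and 2 control libraries, with 1 numbered point per library and a line at the group mean. The groups are apart for Lsd-1, Mtp and mdy (abd-A below control) and for bmm and FASN1 (abd-A above control), while apolpp spans both extremes within the control group, at 357 and 2450.0 CPM.

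**Figure D2:**
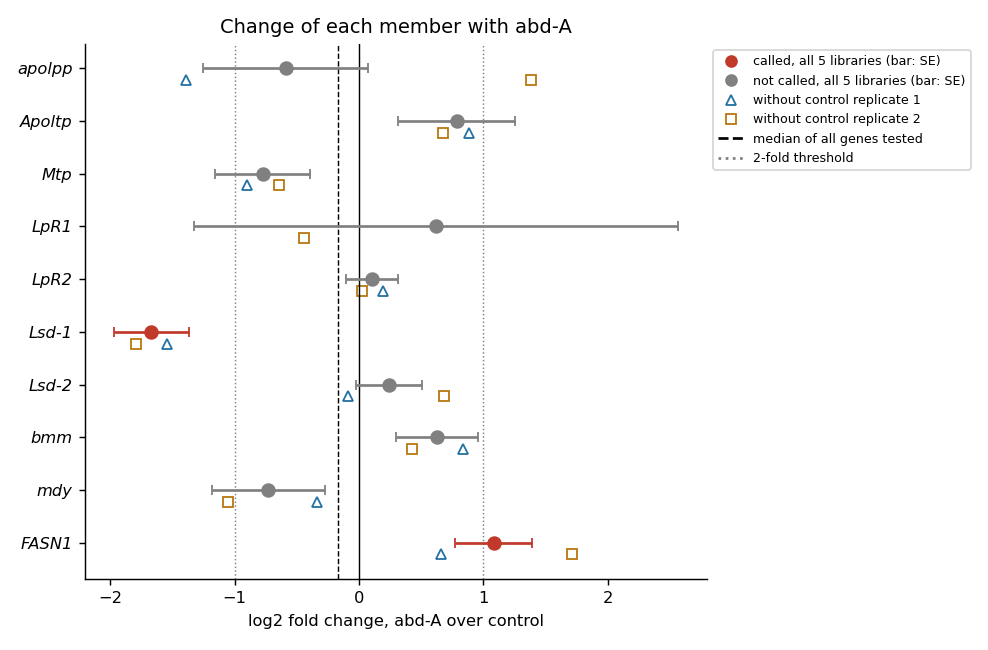
Log2 fold change of each gene, abd-A over control, as filled points with SE bars from all 5 libraries, and as open symbols with either control library left out (for LpR1 the fit without control replicate 1 is not drawn, since the remaining control has 0 counts). Of the 10 genes, only Lsd-1 stays beyond the 2-fold threshold in all 3 fits, and apolpp takes opposite signs when either control is left out.

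The carrier genes were not called. apolpp (FBgn0087002, chromosome 4, bases 1060969 to 1077273 of dm6, forward strand) encodes the precursor of the apolipophorins, the protein backbone of lipophorin. It measured 798, 1518 and 483 CPM in abd-A libraries, against 357 and 2450.0 CPM in control libraries. The control libraries held both the lowest and the highest value, so the groups overlapped completely. Means were 933 ± 531 CPM in abd-A (SD, n = 3) and 1404 ± 1479.8 CPM in control (SD, n = 2), and the log2 fold change was -0.59 (SE 0.67, adjusted p = 0.534, edgeR quasi-likelihood test). The direction rested on which control was used: without control replicate 1 apolpp was called lower (log2 fold change -1.39, adjusted p = 0.00477), and without control replicate 2 it was called higher (1.38, adjusted p = 0.0131, same edgeR test). Zyx, on the other strand, shares 96 exonic bases with apolpp, or 0.816% of its exons.

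The larval serum proteins, which the fat body expresses at high levels, were set beside apolpp. Lsp1beta measured 42.9, 112 and 14.0 CPM in abd-A libraries, against 993 and 8021 CPM in control libraries. Lsp1gamma measured 13.6, 19.1 and 8.09 CPM in abd-A libraries, against 972 and 6463 CPM in control libraries. Both were called lower (log2 fold changes -6.33, SE 0.97, and -8.10, SE 0.77, adjusted p = 0.00167 and 0.000126 by edgeR), whereas apolpp was not. The ratio of apolpp to Lsp1beta counts, a pair chosen after the values were seen, was 18.6, 13.6 and 34.4 in abd-A libraries, against 0.360 and 0.305 in control libraries, and that of apolpp to Lsp1gamma was 58.6, 79.6 and 59.7 in abd-A, against 0.367 and 0.379 in control. In the control libraries apolpp and both serum protein genes were higher in replicate 2. In the abd-A libraries all of them were highest in replicate 2 and lowest in replicate 3. Other fat body markers, at low levels in abd-A, did not follow this order, such as Lsp2 (0.224, 0.272 and 2.34 CPM) and Gnmt (6.71, 2.72 and 3.40 CPM). Nor was the order particular to fat body genes. The muscle markers summed to 472, 613 and 409 CPM in abd-A, against 1274 and 3220 CPM in control. The oenocyte markers summed to 131, 142 and 99.4 CPM in abd-A, against 96.9 and 510 CPM in control. The part of fat body RNA in the apolpp values was not tested.

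**Figure D3:**
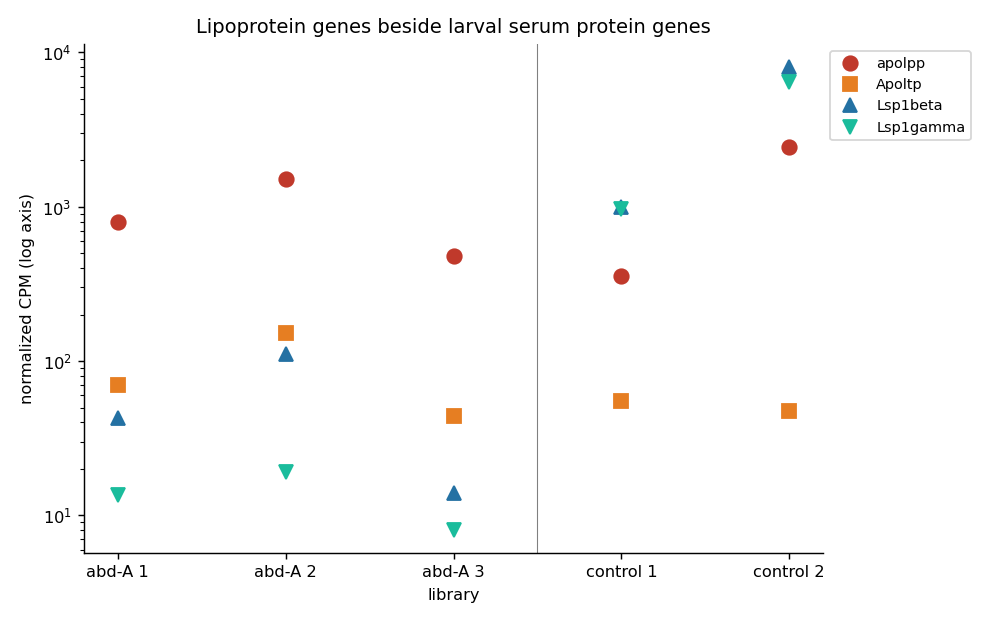
Normalized CPM (log axis) of apolpp and Apoltp beside the fat body serum protein genes Lsp1beta and Lsp1gamma in each of the 3 abd-A and 2 control libraries. apolpp lies above both serum protein genes in every abd-A library and below both in each control library.

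Apoltp (FBgn0032136, chromosome 2L, 9634179 to 9656026, forward strand) encodes the apolipoprotein of the lipid transfer particle, which loads dietary lipid onto lipophorin at the gut. Its levels were 69.7, 151 and 44.3 CPM in abd-A libraries, against 55.0 and 47.7 CPM in control libraries. The controls lay close together and within the range of the abd-A libraries, and the change was not called (log2 fold change 0.78, SE 0.47, edgeR adjusted p = 0.241). Within abd-A, Apoltp and apolpp were both highest in replicate 2 and lowest in replicate 3. The ratio of Apoltp to apolpp counts, again chosen after the values were seen, was 0.0873, 0.0996 and 0.0917 in abd-A, against 0.154 and 0.0195 in control.

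Mtp (FBgn0266369, chromosome 2L, 20919094 to 20922876, reverse strand) encodes the microsomal triglyceride transfer protein, which adds lipid to nascent apolipoproteins in the endoplasmic reticulum. There were 21.2, 27.2 and 16.6 CPM in abd-A libraries, against 33.7 and 40.3 CPM in control libraries. Every abd-A library lay below both controls, yet the difference did not pass the test (log2 fold change -0.78, SE 0.38, edgeR adjusted p = 0.155). The counts behind these levels were 78 to 100 in abd-A and 49 and 104 in control.

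The lipophorin receptors LpR1 and LpR2 are neighbours on chromosome 3R and belong to the LDL receptor family. LpR2 (FBgn0051092, 25698727 to 25740465, reverse strand) measured 256, 296 and 239 CPM in abd-A libraries, against 259 and 231 CPM in control libraries. The libraries of both groups intermingled, and the log2 fold change was 0.11 (SE 0.21, edgeR adjusted p = 0.732), with a sign that turned under 5 of the alternative fits. Relative to the median change of all genes LpR2 stood at 0.28, and between 0.27 and 0.28 under the 4 other scalings. Each scaling shifts a gene and the median nearly alike, so this agreement was built in. LpR1 (FBgn0066101, 25741348 to 25763105, reverse strand), whose span begins 882 bases beyond that of LpR2, had only 1, 9 and 30 counts in abd-A libraries, against 6 and 0 in control libraries. The 0 in control replicate 2 allows up to 1.16 CPM, and limits of this kind cover counting error only. The abd-A libraries differed among themselves by more than the groups did, and LpR1 was not called (log2 fold change 0.62, SE 1.95, edgeR adjusted p = 0.837). LpR2 thus supplied nearly all counts of the receptor pair, with 37.5 to 1145 counts of LpR2 for each of LpR1 in abd-A and 62.8 in control replicate 1. With 1 count added to each gene, so that control replicate 2 could be included, the difference between groups in the log2 of this ratio was -0.45 (exact permutation test, two-sided, p = 0.7).

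Of the 2 perilipins, Lsd-1 was called lower and Lsd-2 was not called. Lsd-1 (FBgn0039114, chromosome 3R, 23763857 to 23766662, forward strand), also known as Perilipin 1, sits on droplets and recruits lipases when lipid is mobilized. It measured 24.6, 24.0 and 18.3 CPM in abd-A libraries, against 76.9 and 65.2 CPM in control libraries. All 3 abd-A values were below both controls and the groups were far apart relative to their spread, with means of 22.3 ± 3.46 CPM in abd-A (SD, n = 3) and 71.1 ± 8.32 CPM in control (SD, n = 2). Lsd-1 was 3.18-fold lower in abd-A (log2 fold change -1.67, SE 0.30, edgeR adjusted p = 0.00408), and it was called lower under all 17 alternatives, with log2 fold changes between -2.07 and -1.54. Among these, dropping the minimum fold change reuses the main fit and could only keep the call. With replicate number as a block in the model, the call passed narrowly (SE 0.57, edgeR adjusted p = 0.0494). The gene CG10214 on the other strand shares 144 exonic bases with Lsd-1, 7.35% of its exons, so that counts there cannot be assigned to either gene for certain. CG10214 itself had 154, 157 and 168 counts in abd-A, against 89 and 149 in control, and was not called (log2 fold change -0.66, SE 0.28, edgeR adjusted p = 0.111). Lsd-1 had 110, 88 and 86 counts in abd-A, against 112 and 168 in control, so its raw counts were smaller than those of CG10214 in every abd-A library and larger in both controls. The part of CG10214 in the Lsd-1 counts was not tested.

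Lsd-2 (FBgn0030608, chromosome X, 15069127 to 15076220, reverse strand), or Perilipin 2, shields droplets from lipases and promotes storage. It measured 192, 178 and 158 CPM in abd-A libraries, against 109 and 187 CPM in control libraries. Control replicate 2 fell within the abd-A range and control replicate 1 below it, and the difference was not called (log2 fold change 0.24, SE 0.27, edgeR adjusted p = 0.528). No exonic base of Lsd-2 is shared with a gene on the other strand. The ratio of Lsd-2 to Lsd-1 counts within a library needs no scaling between libraries, and was 7.82, 7.42 and 8.63 in abd-A libraries, against 1.42 and 2.88 in control libraries. All abd-A ratios exceeded both controls, by 3.93-fold on average of the logs (difference in log2 1.97), and the exact permutation test gave p = 0.1 (two-sided), the smallest that 3 against 2 libraries allow. Adjusted over the 3 ratios planned, it was 0.15. Without one library the difference in log2 ranged between 1.47 and 2.48.

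**Figure D4:**
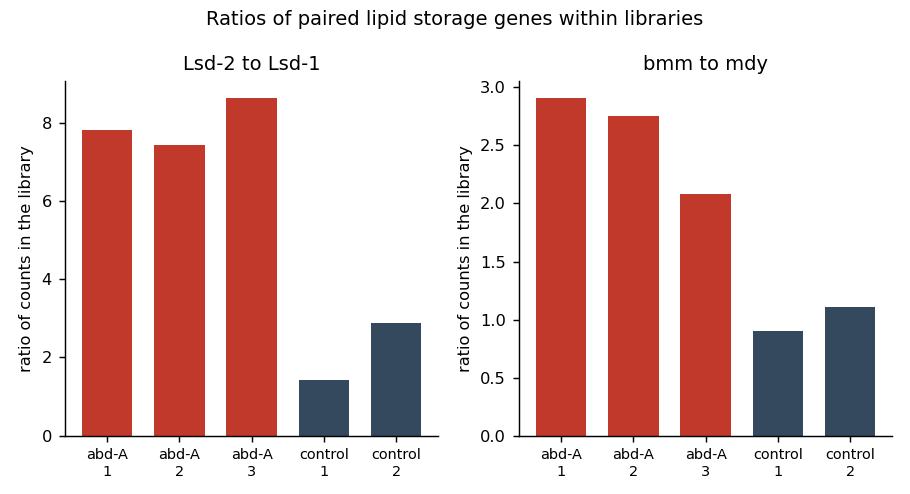
Bars give the ratio of counts within each library (linear axis from 0) for Lsd-2 to Lsd-1 and for bmm to mdy, in 3 abd-A and 2 control libraries. Every abd-A ratio is above both control ratios in each pair, for example 7.42 to 8.63 in abd-A and 1.42 and 2.88 in control for Lsd-2 to Lsd-1.

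On the side of triglyceride turnover, neither the lipase nor the acyltransferase was called. The libraries of each were separated by group, in opposite directions, as were those of 56.6% of all genes tested in either direction. bmm (FBgn0036449, chromosome 3L, 14776496 to 14786412, reverse strand) encodes Brummer, the main triglyceride lipase of fly droplets. Its levels were 42.9, 39.0 and 43.0 CPM in abd-A libraries, against 30.9 and 23.3 CPM in control libraries. The abd-A libraries were tightly grouped above both controls (log2 fold change 0.63, SE 0.33, edgeR adjusted p = 0.182). mdy (FBgn0004797, chromosome 2L, 16816660 to 16826964, forward strand) encodes midway, the diacylglycerol acyltransferase that completes triglyceride synthesis. Here 14.8, 14.2 and 20.6 CPM were measured in abd-A libraries, against 34.3 and 20.9 CPM in control libraries. The groups were separated by the narrow gap between abd-A replicate 3 and control replicate 2 (log2 fold change -0.73, SE 0.45, edgeR adjusted p = 0.256). Counts of bmm per count of mdy were 2.91, 2.75 and 2.08 in abd-A libraries, against 0.900 and 1.11 in control libraries. The abd-A ratios were all higher, 2.55-fold on average of the logs, with p = 0.1 in the exact permutation test (two-sided, the smallest possible) and 0.15 adjusted over the 3 ratios. Hsl, the hormone-sensitive lipase that acts beside Brummer, was not called either, at 45.1, 42.0 and 39.2 CPM in abd-A and 34.3 and 20.2 CPM in control.

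FASN1 (FBgn0283427, chromosome 2L, 3056598 to 3068177, forward strand) encodes fatty acid synthase, which builds palmitate from malonyl-CoA. It measured 381, 371 and 308 CPM in abd-A libraries, against 107 and 224 CPM in control libraries. Every abd-A library exceeded both controls, and the controls were further apart than any pair of abd-A libraries, with means of 353 ± 39.1 CPM in abd-A (SD, n = 3) and 166 ± 82.8 CPM in control (SD, n = 2). FASN1 was 2.12-fold higher in abd-A (log2 fold change 1.08, SE 0.31, edgeR adjusted p = 0.0307). The change lay close to both thresholds. It was below 2-fold with DESeq2's size factors (0.94), upper-quartile factors (0.92), library totals (0.93) and without control replicate 1 (0.66, edgeR adjusted p = 0.00827), and the adjusted p rose to 0.116, 0.104 and 0.0661 without abd-A replicate 1, 2 or 3. Relative to the median change of all genes, FASN1 stood at 1.25 under the main scaling and between 1.25 and 1.29 under the 4 others tried, and Lsd-1 at -1.50 and between -1.51 and -1.50. A change of scaling shifts each gene and the median nearly alike. The agreement between scalings was thus built in and does not test the calls. ACC and ATPCL, which supply malonyl-CoA and acetyl-CoA to the synthase, were not called, with log2 fold changes of 0.46 (SE 0.31) and 0.62 (SE 0.28) and edgeR adjusted p of 0.295 and 0.136.

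Levels between genes can be compared only per length, as RPKM, here the normalized CPM divided by the length in kilobases of the union of a gene's exons. The order takes each count as coming from the gene's own strand, which was not tested. By group mean, apolpp was the most abundant of the 10 in both groups, at 79.3 ± 45.1 RPKM in abd-A and 119 ± 126 RPKM in control (SD, n = 3 and 2), and LpR1 the least, at 0.455 ± 0.470 RPKM in abd-A and 0.310 ± 0.439 RPKM in control. The first place of apolpp did not hold in every library: it was below LpR2 in abd-A replicate 3 (41.0 against 43.4 RPKM) and below LpR2 and Lsd-1 in control replicate 1 (30.4 against 47.0 and 39.3 RPKM), while in control replicate 2 it reached 208 RPKM. After apolpp came LpR2, FASN1 and Lsd-2 in the abd-A order, at 47.9 ± 5.27, 40.4 ± 4.48 and 38.3 ± 3.75 RPKM, and the libraries of these first 4 overlapped between neighbours. In abd-A libraries Lsd-2 and bmm (17.1 ± 0.946 RPKM in abd-A, 11.1 ± 2.22 RPKM in control) did not overlap, nor did bmm and Lsd-1, Lsd-1 and Mtp, or mdy and LpR1. Lsd-1 had rank 6 in abd-A at 11.4 ± 1.77 RPKM and rank 3 in control at 36.3 ± 4.25 RPKM, and FASN1 had rank 3 in abd-A and rank 5 in control, at 18.9 ± 9.47 RPKM in control. Between Lsd-1 and LpR1 in the abd-A order lay Mtp (7.40 ± 1.82 RPKM in abd-A, 12.6 ± 1.61 RPKM in control), Apoltp (6.63 ± 4.19 RPKM in abd-A, 3.85 ± 0.384 RPKM in control) and mdy (6.14 ± 1.33 RPKM in abd-A, 10.3 ± 3.52 RPKM in control). In the control order the neighbours that did not overlap were LpR2 and Lsd-1, mdy and Apoltp, and Apoltp and LpR1.

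Around these 10 genes, 8 lists of other lipid genes held 114 names, 98 of which were tested. Of these, 13 were called higher, 11 lower and 74 neither, 24 of 98 in all beside 23.7% over all genes, with a median log2 fold change of 0.03. These counts, and those of other lipid genes below, include CCT1 and CCT2, chaperonin subunits that entered a list by their symbols. Among 8 other lipid carriers and transfer proteins 1 was called, cv-d, a vitellogenin-like lipoprotein, at 139, 152 and 127 CPM in abd-A, against 253 and 341 CPM in control (log2 fold change -1.09, edgeR adjusted p = 0.00653). The LDL receptor and CD36 families had 3 of 12 higher and 2 lower. mgl, or megalin, an endocytic relative of the lipophorin receptors, measured 315, 258 and 289 CPM in abd-A, against 59.8 and 53.9 CPM in control (log2 fold change 2.34, SE 0.23, edgeR adjusted p = 0.000166), whereas LpR2 was not called. Also higher were pes, a CD36 family member (1.53, edgeR adjusted p = 0.00762), and cue (1.17, edgeR adjusted p = 0.0287). yl, the yolk protein receptor, and emp, another CD36 family member, had 0 to 1.34 CPM in abd-A, against 11.7 to 27.9 CPM in control, and both were called lower.

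The other 5 droplet proteins tested held 1 call, dob, a lipase closely related to bmm, at 5.14, 4.63 and 4.68 CPM in abd-A, against 110 and 122 CPM in control (log2 fold change -4.58, SE 0.30, edgeR adjusted p = 2.07e-05). The dob libraries thus lay well below control where those of bmm lay above. Jabba, a droplet protein that anchors histones, measured 17.9, 32.7 and 8.94 CPM in abd-A, against 2.06 and 60.5 CPM in control, and was not called. As for apolpp, its lowest and highest values were both in control libraries. Of 8 lipases including dob, 2 were higher and 2 lower, beside 23.7% called over all genes. Lip4 measured 31.3, 33.2 and 35.3 CPM in abd-A, against 0 and 3.88 CPM in control, and PAPLA1 rose by 1.18 (log2). Lip1 had 0 counts in every abd-A library and 19 and 38 in control, at least 19.6-fold lower against a floor of 3 counts per library.

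The list of triglyceride and phospholipid synthesis had 3 of 12 genes higher and 2 lower, CCT1 and CCT2 included, beside 23.7% called over all genes. The genes called higher were CCT2 (568, 541 and 582 CPM in abd-A, 61.8 and 131 CPM in control, log2 fold change 2.53, edgeR adjusted p = 0.000651), CCT1 (1.50, edgeR adjusted p = 0.00145) and the ethanolamine kinase eas (1.26, edgeR adjusted p = 0.00558). CCT1 and CCT2 (FBgn0003676 and FBgn0030086) encode subunits of the cytosolic chaperonin. They entered this list by their symbols and are not enzymes of lipid synthesis. The genes called lower were the phosphatidate phosphatase Lpin (24.6, 19.1 and 21.7 CPM in abd-A, 74.2 and 82.2 CPM in control, log2 fold change -1.84, edgeR adjusted p = 0.0019) and the acyltransferase mino (-1.51, edgeR adjusted p = 0.00714), although 42.4% of the exonic bases of mino are shared with genes on the other strand. The other 7 tested did not pass the test, among them the glycerol-phosphate acyltransferase Gpat4 (0.75, edgeR adjusted p = 0.134) and the ethanolamine phosphotransferase bbc (0.51, edgeR adjusted p = 0.191). Among the 23 named genes of these lists, 4 others share 5 to 99 such bases.

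Fatty acid synthesis, elongation and activation, the pathway of FASN1, had 3 of 24 genes higher, 3 lower and 18 not called. Over all genes tested 23.7% were called, so that these calls lie near the background. The reductase spidey (log2 fold change 1.90), acetyl-CoA synthetase AcCoAS (1.81) and the elongase CG31523 (1.38) were higher, with edgeR adjusted p of 0.00941, 0.0131 and 0.0336, and the malic enzyme Men (-1.42, edgeR adjusted p = 0.000873) and the elongase Elovl7 (-4.34, edgeR adjusted p = 0.0351) were lower. The remaining call, sit, had 0 counts in every abd-A library, against 8 and 19 in control, fewer than the named genes were required to have, and is given to complete the count. None of the 12 genes of fatty acid oxidation was called by edgeR, and 1 had an unadjusted p under 0.05, CPT2, at 28.6, 24.5 and 26.0 CPM in abd-A, against 8.24 and 13.6 CPM in control; the DESeq2 Wald test and limma-voom also called 0. Of 19 regulators, SREBP (1.21, edgeR adjusted p = 0.00412) and foxo (1.23, edgeR adjusted p = 0.0101) were higher and the ecdysone receptor EcR (-3.24, edgeR adjusted p = 0.000651) was lower. Without one library the call was lost in 4 of 5 fits for cue, CG31523 and Elovl7, in 3 for cv-d, in 2 for AcCoAS and foxo, and in 1 for emp and PAPLA1.

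**Figure D5:**
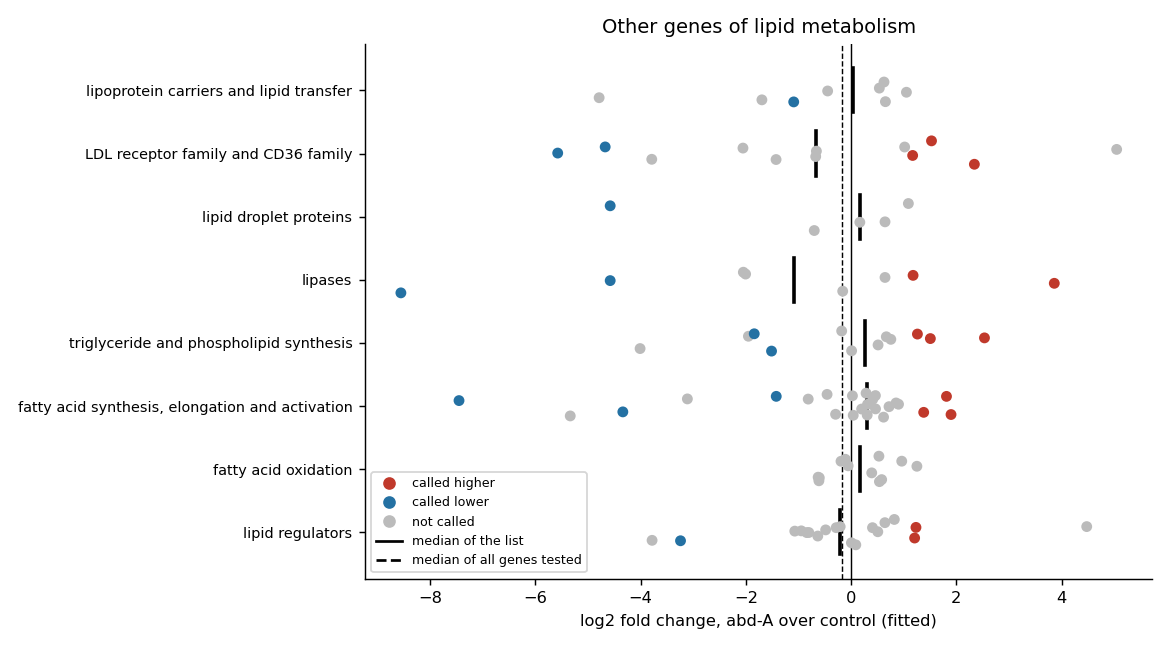
Log2 fold change, abd-A over control, of each tested gene in 8 lists of other lipid genes, 1 point per gene in each list, with calls in color, other genes in grey and the median of each list marked. The genes dob and Hsl are drawn in both the droplet and the lipase list. The values of Lip1, at the far left, and of sit are fitted values against 0 counts in abd-A and no measure of size. The same holds for ninaD and Akh, which were not called and had 0 counts in control. Calls lie on both sides of 0 in most lists, 13 genes higher and 11 lower in all with dob counted once, and there is none in fatty acid oxidation. The points and the calls higher include CCT1 and CCT2, which are chaperonin subunits and not lipid genes.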

How the data were processed

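Hemolymph RNA of 5 libraries was prepared with a directional kit and sequenced in pairs of 75 bases. According to the submitters' processing notes and methods, the authors mapped reads to dm6 with STAR 2.5.2 and counted them per gene with HTSeq 0.11.2; the deposited unit is raw counts. Annotation release and strand setting are not given in the sources used here. Counts with a sum of at least 10 were tested in R 4.3.3 by the quasi-likelihood method of edgeR 4.0.16 with TMM scaling and Benjamini-Hochberg adjustment. Symbols, exons and overlaps came from Ensembl release 115, where 17710 of 17807 IDs matched. No gene sequences were used here. The 10 genes and all lists were chosen with earlier results of these data known. Named genes outside the 10 were called list members averaging 20 counts or more in their higher group, up to 4 per direction and list, plus Hsl, Jabba, ACC, ATPCL, CPT2, Gpat4, bbc and sit, chosen after their values were seen. DESeq2 1.42.0, limma 3.58.1, other scalings, filters, thinning, a replicate block and leaving out each library were alternatives. Of 11 marker lists, the lists not yet described gave: crystal cells, 6 of 6 lower; pan-hemocyte genes, 1 of 3 higher; oenocytes, 1 of 6 higher and 1 lower; muscle, 6 of 7 lower; midgut, 1 of 4 higher; salivary gland, 0 of 2 called; neurons, 2 of 4 lower; testis, 2 of 4 lower.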

Additional observations from a re-analysis of the deposited data

How the results depend on the processing

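FASN1 was the only one of the 10 genes called higher, and the number called higher was 0 with DESeq2 size factors, upper-quartile factors, library totals, at least 10 counts in every library, the DESeq2 Wald test and counts thinned to the smallest library. Leaving out 1 library gave 0 to 2 called higher and 1 to 2 called lower. Among other lipid genes, the number lower was 17 without a count filter, 18 with the DESeq2 Wald test and 7 with the replicate block, and leaving out 1 library gave 9 to 26 higher and 8 to 21 lower. Over all genes tested, 911 were lower with at least 10 counts in every library and 831 with the replicate block, and leaving out 1 library gave 742 to 2318 higher and 793 to 2118 lower. By gene spans in place of exons, 4 members were overlapped on the other strand in place of 2.

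The direction turned for apolpp (0.23 with the replicate block, -1.39 to 1.38 on leaving out 1 library), LpR1 (-0.15 with the block, -0.56 to 6.56 on leaving out 1 library, the last against a control with 0 counts), LpR2 (-0.047 with DESeq2 size factors, -0.072 with upper-quartile factors, -0.090 with library totals, -0.040 with at least 10 counts in every library, -0.046 with the DESeq2 Wald test) and Lsd-2 (-0.090 to 0.68 on leaving out 1 library). The median over all genes, -0.17, was -0.32 with DESeq2 size factors, -0.36 with library totals and 0.014 with at least 10 counts in every library, and -0.21 to 0.11 on leaving out 1 library; the causes were not tested. Deviations of same-numbered libraries from their group means correlated at r = 0.019 and -0.033 over 8917 genes. With 2 controls, the deviations of the controls mirror each other, so these values cannot settle whether the numbers pair libraries. The replicate block gave 867 genes higher and 831 lower, with 1 member each way. Of the comparisons of members with alternatives, 147 kept direction and side of the threshold and 11 turned direction. Of those that kept direction, 10 lost the call and 1 gained one. A comparison that turned direction was counted only as such, whether called or not. Fits with 1 control assume that it varies like the abd-A libraries. LpR1, with 0 to 30 counts a library, was not tested with at least 10 counts in every library.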
